A study of Mus musculus with 6 samples.

Results

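The 10 genes described here build and run the mitochondrial genome or switch on the nuclear genes of the respiratory chain: Ppargc1b, Esrra, Nrf1, Gabpa, Tfam, Tfb1m, Tfb2m, Polrmt, Polg and Twnk. They were read by symbol from a table of 17975 genes, and all 10 were found there. Each had at least 93 counts in every liver, and all 10 were among the 13805 genes that passed the filter on low counts and were tested. RNA was sequenced from whole livers of 3 NEK7 hepatocyte knock-out mice (Hom, homozygous NEK7 fl/fl with the Alb-Cre transgene) and of 3 wild-type mice (WT), with 1 liver per mouse. Alb-Cre is driven by the albumin promoter, so Nek7 is deleted in hepatocytes while the other liver cells keep it. The WT mice are given only as WT, and neither the age of the sequenced mice nor any treatment is stated for these libraries. The comparison asks how loss of NEK7, a kinase that the study places in mitochondria, changes the expression of these regulators.

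Mitochondria carry their own DNA, which encodes a few subunits of the respiratory chain and the RNAs of the mitochondrial ribosome. All other mitochondrial proteins come from nuclear genes. In the nucleus, the coactivator PGC-1beta (Ppargc1b) and its relative PGC-1alpha work through transcription factors such as ERRalpha (Esrra), NRF1 and GABPA to switch on genes of oxidative phosphorylation (OXPHOS) and the factors sent to the organelle. In the organelle, TFAM packages the DNA and bends promoters, TFB2M opens them for the RNA polymerase POLRMT, TFB1M modifies the small ribosomal RNA, Twinkle (Twnk) unwinds the DNA and the polymerase POLG copies it. Hepatocytes are rich in mitochondria.

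Library totals were nearly equal, from 19349418 to 19730236 counts, but their make-up was not. The 10 most counted genes of WT livers took up 18.8% to 20.6% of a WT library but 11.7% to 13.6% of a Hom library. The TMM factors, which correct for such differences in composition, were 0.806 to 0.924 in WT and 1.09 to 1.23 in Hom livers. Levels below are counts scaled by library size after this correction (TMM CPM) unless TPM is named. Nek7 itself was at 62.9, 69.0 and 63.6 TMM CPM in WT replicates 1, 2 and 3 and at 14.4, 18.1 and 16.7 in Hom replicates 1, 2 and 3. The defining hepatocyte markers Alb, Apoa1, Ttr, Hnf4a and Cps1 were present in every liver. Hom replicate 1 had 0 counts of the Y-linked gene Ddx3y, which had at least 630 in each of the other 5 livers, and the study used mice of both sexes. WT replicate 1 held 88.8 TMM CPM of summed lymphocyte and neutrophil markers against 8.40 and 14.4 in the other WT livers. Calls that were lost without one of the livers are named with their values.

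Most of the 10 regulators were modestly lower in Hom livers. Ppargc1b fell the most, to 49.8% of its WT mean, Twnk, Tfb2m and Gabpa fell to between 69.3% and 74.4%, and Polg, Polrmt and Tfam to between 78.3% and 84.4%. Nrf1, Tfb1m and Esrra did not pass the test. By the edgeR quasi-likelihood test, with Benjamini-Hochberg adjustment over all 13805 genes and a threshold of 0.05, 7 of 10 members were lower and none was higher. Among all tested genes 20.1% were lower and 21.5% higher, 41.7% in either direction. The same 7 members had every Hom liver under every WT liver, a pattern that 27% of tested genes showed, and 0 members showed the opposite order, which 28.7% of tested genes did. The median log2 fold change of the 10 was −0.33, against −0.0018 for all tested genes. These directions are relative to the other genes of the same liver. Before TMM correction, the 10 genes together had 4186 to 4488 counts per WT liver and 4765 to 4857 per Hom liver, whereas their summed TMM CPM was 250.5 to 268.6 in WT and 200.1 to 222.2 in Hom livers. With libraries scaled by total alone the median of all genes rose by 0.45, and 0 members were then lower and 2 higher, Esrra and Nrf1, against 4.65% and 47.6% of all tested genes.

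**Figure D1:**
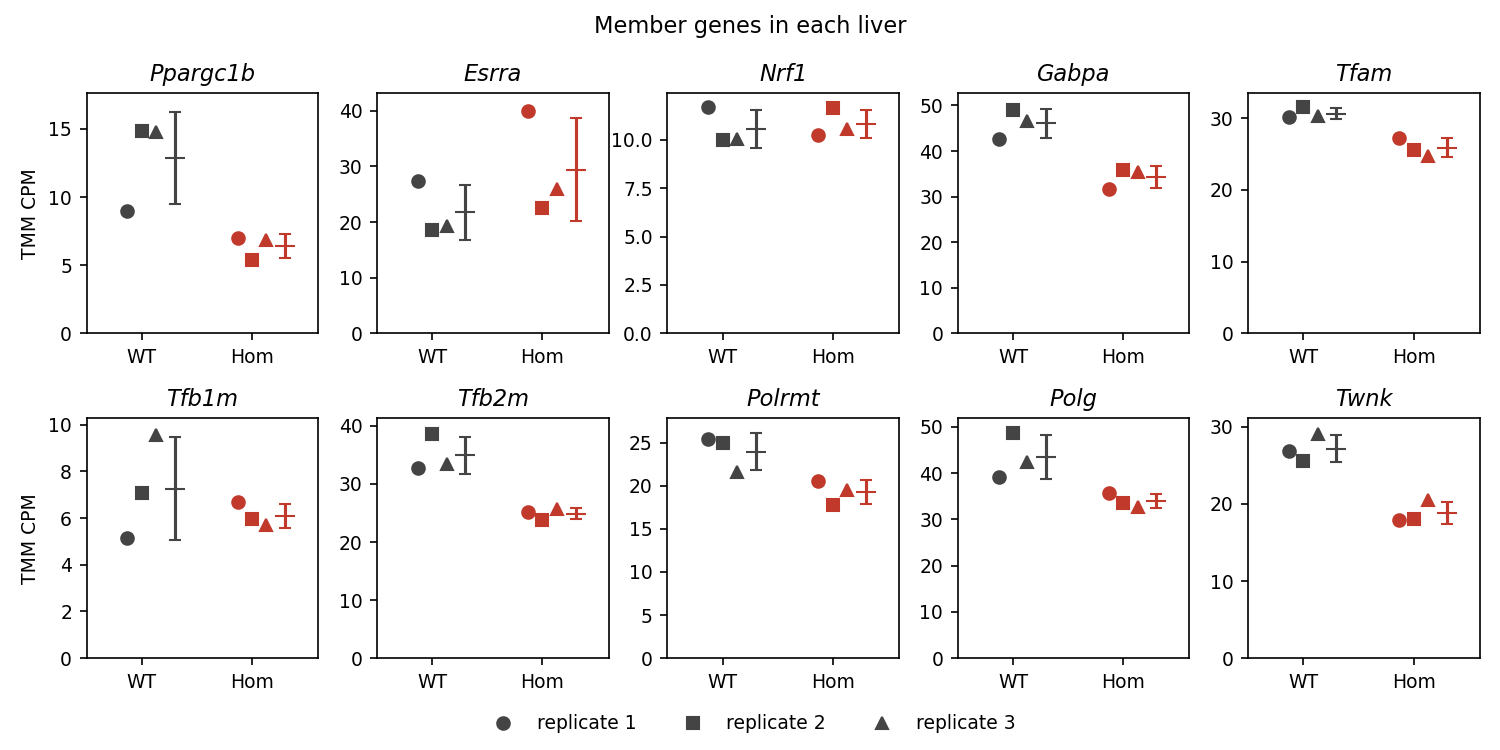
Level of each member in each liver (vertical axes, TMM CPM, starting at 0), with WT in grey and Hom in red; marker shapes give the replicate number, and the bar beside them is the mean with the SD over 3 mice. The Hom livers lie under all WT livers for 7 genes, and the groups overlap for Esrra, Nrf1 and Tfb1m.

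The ranks of the members among all genes do not move with the scaling in this way. In the TMM fit, the log2 fold change of Ppargc1b stood at percentile 5.2 of all tested genes, Twnk at 14.7, Tfb2m at 16.3, Gabpa at 19.4, Polg at 23.5, Polrmt at 26.2, Tfb1m at 30.1, Tfam at 31.0, Nrf1 at 52.6 and Esrra at 72.2. In all, 8 of the 10 lay under the median of all genes, and 8 did so with library size alone. Over all alternative fits, the percentile of Ppargc1b ranged from 4.3 to 9.7 and that of Twnk from 13.2 to 18.3. The percentile of Tfb1m was less settled, from 19.2 to 48.8.

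The count of lower members was smaller under most other settings, and so was the background. DESeq2 called 5 members lower against 20.7% of tested genes (22.3% higher), and upper-quartile factors 4 against 14.9% (25.2% higher). RLE factors called 7 against 20.2% (21.6% higher), a minimum of 10 counts in every liver 5 against 19.4% (20.9% higher), and no filter 5 against 14.4% (16.1% higher). A correction for gene length called 7 against 18.2% (22% higher), and a minimum log2 fold change of 1 left Ppargc1b alone, against 4.17% (13.2% higher). None of these settings called a member higher. With the replicate number as a block 4 members were lower against 16% and Esrra was higher against 17.3%, and with gene length correction added these were 5 against 14.4% and 1 against 17.2%. Leaving out WT replicate 1, 2 or 3 gave 5, 4 and 5 lower members against 19.4%, 13.8% and 15.7% of tested genes, and leaving out Hom replicate 1, 2 or 3 gave 6, 4 and 4 against 18.1%, 13.1% and 12.6%. No member was then higher, against 21.5%, 14.5% and 17.2% without a WT liver and 19.2%, 14.4% and 14.2% without a Hom liver.

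**Figure D2:**
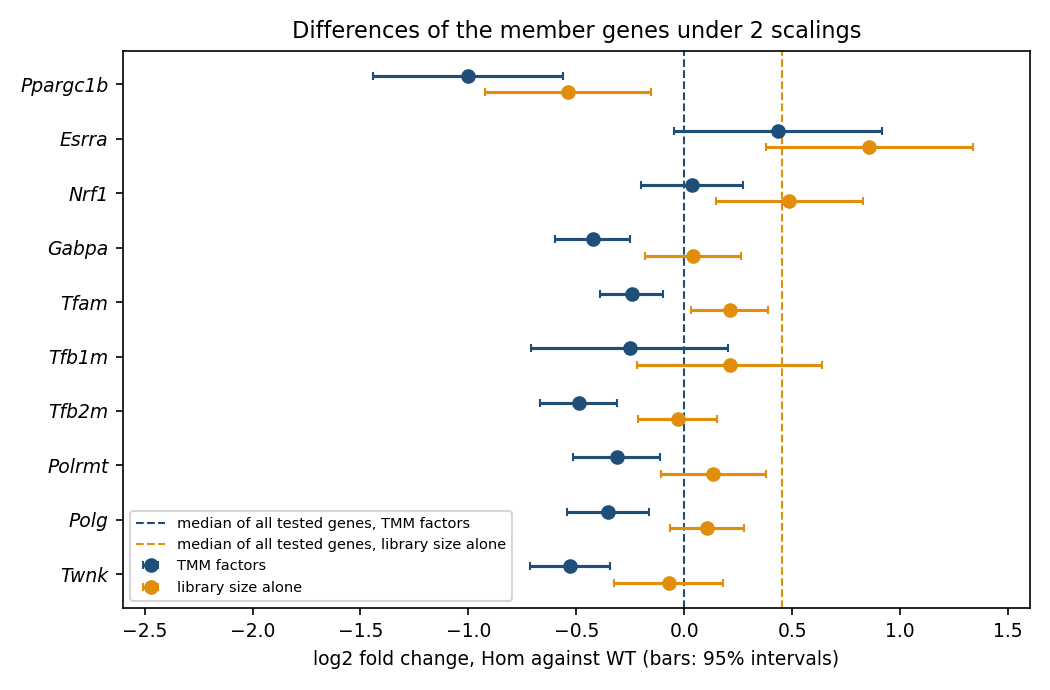
Log2 fold change of each member, Hom against WT (horizontal axis; bars are 95% intervals), with TMM factors in blue and with library size alone in orange; the dashed lines mark the median of all tested genes under each scaling. The shift of 0.45 carries the whole set to the right, and Tfam moves from −0.24 to 0.21, while each gene keeps nearly the same distance from its dashed line.

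Among the nuclear regulators, Ppargc1b encodes PGC-1beta, a coactivator of nuclear receptors. It was at 8.995, 14.8 and 14.8 TMM CPM in WT replicates 1, 2 and 3 and at 6.99, 5.41 and 6.84 in Hom replicates 1, 2 and 3. The Hom values were all the lower ones, although WT replicate 1 lay nearer to the Hom group than to its own. The log2 fold change was −1.003 (standard error, SE, 0.23; edgeR adjusted p = 0.0125), and it was −1.21 without WT replicate 1. With library size alone it was −0.54 (adjusted p = 0.0518 from edgeR), so Ppargc1b kept its direction but not its call. Its level per length was the lowest of the 10, at 1.77 ± 0.292 TPM in WT livers (SD, n = 3 mice).

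Esrra encodes the orphan receptor ERRalpha, a main partner of both PGC-1 coactivators. It was at 27.4, 18.5 and 19.3 TMM CPM in WT replicates 1, 2 and 3 and at 39.9, 22.5 and 25.9 in Hom replicates 1, 2 and 3. The groups overlap, since WT replicate 1 lies above 2 of the Hom livers. The log2 fold change was 0.43 (95% interval −0.05 to 0.92, adjusted p = 0.195 from edgeR), and it was 0.15 without Hom replicate 1 and 0.86 with library size alone (adjusted p = 0.0224 from edgeR). Nrf1, a transcription factor of respiratory genes, was at 11.7, 9.97 and 10.0 TMM CPM in WT replicates 1, 2 and 3 and at 10.3, 11.6 and 10.6 in Hom replicates 1, 2 and 3. The Nrf1 groups overlap fully, and its log2 fold change was 0.03 (95% interval −0.20 to 0.27). With library size alone Nrf1 passed the test as higher, at 0.49, next to the median of all genes of 0.45 under that scaling.

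Gabpa encodes the DNA-binding subunit of nuclear respiratory factor 2, which belongs to the ETS family. It was at 42.8, 49.0 and 46.6 TMM CPM in WT replicates 1, 2 and 3 and at 31.6, 35.9 and 35.4 in Hom replicates 1, 2 and 3. The groups are clearly apart, and Gabpa fell by 0.42 on the log2 scale (SE 0.088, edgeR adjusted p = 0.00943). With library size alone the value turned to 0.04. Its partner subunit genes Gabpb1 and Gabpb2 had log2 fold changes of −0.27 and −0.19 and did not pass the test (adjusted p = 0.125 and 0.257 from edgeR).

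Of the 4 genes of mitochondrial transcription, Tfb2m differed the most. Tfb2m was at 32.8, 38.6 and 33.5 TMM CPM in WT replicates 1, 2 and 3 and at 25.2, 23.8 and 25.6 in Hom replicates 1, 2 and 3. The Hom values are close together and well under the WT values, and the log2 fold change was −0.49 (SE 0.090, edgeR adjusted p = 0.00612; −0.03 with library size alone). Polrmt, the RNA polymerase that TFB2M assists, was at 25.5, 24.9 and 21.6 TMM CPM in WT replicates 1, 2 and 3 and at 20.6, 17.8 and 19.5 in Hom replicates 1, 2 and 3. Its lowest WT liver lies just above its highest Hom liver, and the log2 fold change was −0.31 (SE 0.10, edgeR adjusted p = 0.0469), turning to 0.14 with library size alone. The call for Polrmt was lost without WT replicate 1 (adjusted p = 0.101), WT replicate 2 (0.131), Hom replicate 1 (0.0511), Hom replicate 2 (0.149) or Hom replicate 3 (0.116), all from edgeR.

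Tfam, the packaging protein of mitochondrial DNA, had the smallest difference among the called members. Its WT replicates were the closest together of the 10, but in Hom livers those of Tfb2m and Polg were closer. It was at 30.2, 31.5 and 30.3 TMM CPM in the WT replicates 1, 2 and 3 and at 27.3, 25.5 and 24.8 in the Hom replicates 1, 2 and 3. The log2 fold change was −0.24 (SE 0.075, edgeR adjusted p = 0.0369), and it turned to 0.21 with library size alone. Leaving out 1 liver ended the call for Tfam in 5 of 6 cases: the adjusted p from edgeR was 0.0541, 0.107 and 0.0755 without WT replicate 1, 2 or 3 and 0.116 and 0.133 without Hom replicate 2 or 3. Tfb1m, the methyltransferase relative of Tfb2m, was the least counted member. It was at 5.16, 7.07 and 9.57 TMM CPM in WT replicates 1, 2 and 3 and at 6.69, 5.95 and 5.70 in Hom replicates 1, 2 and 3. WT livers span the whole Hom range, and the log2 fold change of −0.25 (95% interval −0.71 to 0.20) did not pass the test. It was −0.01 without WT replicate 3 and −0.45 without WT replicate 1, and neither passed.

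Both replication enzymes were lower. Polg, the catalytic subunit of the mitochondrial DNA polymerase, was at 39.3, 48.6 and 42.4 TMM CPM in WT replicates 1, 2 and 3 and at 35.7, 33.6 and 32.7 in Hom replicates 1, 2 and 3. The gap between the groups is small, and the log2 fold change was −0.35 (SE 0.097, edgeR adjusted p = 0.0262; 0.11 with library size alone). The Polg call was lost without WT replicate 2 (adjusted p = 0.0694), WT replicate 3 (0.0519), Hom replicate 2 (0.0815) or Hom replicate 3 (0.0911), all from edgeR. Twnk, the replicative helicase, was at 26.9, 25.6 and 29.1 TMM CPM in WT replicates 1, 2 and 3 and at 18.0, 18.1 and 20.5 in Hom replicates 1, 2 and 3. Its groups are well apart, and the log2 fold change was −0.53 (SE 0.095, edgeR adjusted p = 0.00551; −0.07 with library size alone). Gabpa, Ppargc1b, Tfb2m and Twnk were called lower without any 1 of the 6 livers, Hom replicate 1 and WT replicate 1 included.

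Several members share genomic sequence with a neighbour on the other strand in GENCODE M21: Gabpa with Atp5j, Esrra with Trmt112, Polg with Fanci, Twnk with Mrpl43, and Tfb1m with Tiam2 and Cldn20. Whether counting used strand is not given in the sources used here, so reads from the shared stretch may be split between the partners. The partner log2 fold changes were −0.67 for Atp5j, −0.45 for Trmt112, 1.30 for Fanci, −0.22 for Mrpl43 and −0.45 for Tiam2. Fanci was at 1.01 TMM CPM or less in every liver, far under Polg. Cldn20 had at most 2 counts and was not tested.

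Marker genes of other cells moved in the same comparison. Among all tested genes 20.1% were lower and 21.5% higher, and the macrophage markers below were near these shares. The 20 hepatocyte markers summed to between 182900 and 218300 TMM CPM in WT and between 95500 and 139000 in Hom livers, with 12 lower, 0 higher and none at 0 in any liver. Alb alone accounted for 96280 to 123800 of this sum in WT and 39580 to 55710 in Hom livers. The 10 cholangiocyte markers summed to 71.3 to 105 TMM CPM in WT and 632 to 891 in Hom livers, with 9 higher. The 10 stellate markers, 4 higher and 2 lower (Reln and Ngfr), summed to 202 to 224 in WT and 412 to 519 in Hom livers. The collagen genes Col1a1 and Col3a1 made up 35.6 to 55.1 of this sum in WT and 267 to 338 in Hom livers, and the other 8 markers 148 to 177 and 145 to 182, which overlap. The 10 endothelial markers, 6 of them lower and 0 higher, summed to 256 to 351 and 183 to 187. None of the 10 cholangiocyte, 10 stellate or 10 endothelial markers was at 0 in any liver. The macrophage markers, 2 lower and 2 higher, summed to 283 to 689 in WT and 410 to 577 in Hom livers, and those of lymphocytes and neutrophils, 2 of them higher and Cd3d at 0 in at least 1 liver, to 8.40 to 88.8 and 32.9 to 72.8. The 10 proliferation genes, 9 of them higher, summed to 6.41 to 16.2 in WT and 26.8 to 56.2 in Hom livers. The part of these shifts in the members' levels was not tested, and in bulk tissue fewer cells of a type cannot be told apart from less RNA per cell.

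A ratio taken within 1 liver does not depend on how libraries are scaled, so each member's TPM was also divided by 3 sums from the same liver. Over the summed TPM of the 10 members, Esrra made up 17.4%, 11.5% and 12.1% in the WT livers, replicates 1, 2 and 3, against 27.1%, 17.5% and 19.7% in the Hom livers in the same order. The Hom shares lie above the WT shares, although the lowest Hom share hardly exceeds the highest WT share. Ppargc1b made up 1.17%, 1.86% and 1.88% in WT and 0.965%, 0.868% and 1.04% in Hom replicates, with all Hom livers lower. Tfb2m had a mean share of 19.4% in WT and 16.3% in Hom livers, without overlap. In this measure 1 member was above and 2 were below without overlap, against 41% and 13% of all tested genes set over the same sum, and the exact two-sided permutation test gave p = 0.1 for each, the smallest that 3 against 3 allow (adjusted p = 0.333 over 10 members). The share of Tfam was 10.4% ± 0.115 in WT and 10.4% ± 0.494 in Hom livers (SD, n = 3 mice). Shares of 1 sum are not independent, since a higher value of 1 member lowers the shares of the others. Mean TPM in WT and Hom livers was 15.2 and 30.6 for Esrra and 21.2 and 23.2 for Tfb2m.

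The nuclear-encoded OXPHOS subunits, known targets of the nuclear regulators among the members, gave a second yardstick. The 77 subunit genes summed to 12050 to 12400 TMM CPM in WT and 7331 to 8097 in Hom livers. Relative to their summed TPM, Tfam was at 0.0539% ± 0.00215 in WT and 0.0726% ± 0.00147 in Hom livers (SD, n = 3 mice), a log2 difference of 0.43 without overlap. Esrra had a log2 difference of 1.09, Nrf1 of 0.68, Polrmt of 0.36 and Polg of 0.32, each with all Hom livers higher. The other 5 members overlapped between groups, and Ppargc1b alone had a negative mean difference, −0.31. Thus 5 of 10 members were higher relative to the subunits without overlap, a smaller share than the 73.9% of all tested genes, and 0 were lower without overlap, against 3.48% (exact two-sided permutation test, p = 0.1 for each, adjusted p = 0.2 over 10 members). Over the summed hepatocyte markers 6 of 10 were higher without overlap (Tfam, Nrf1, Esrra, Tfb2m, Polg and Polrmt), against 73.3% of all tested genes, and 0 were lower, against 1.88% (exact permutation test, p = 0.1 for each, adjusted p = 0.167).

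**Figure D3:**
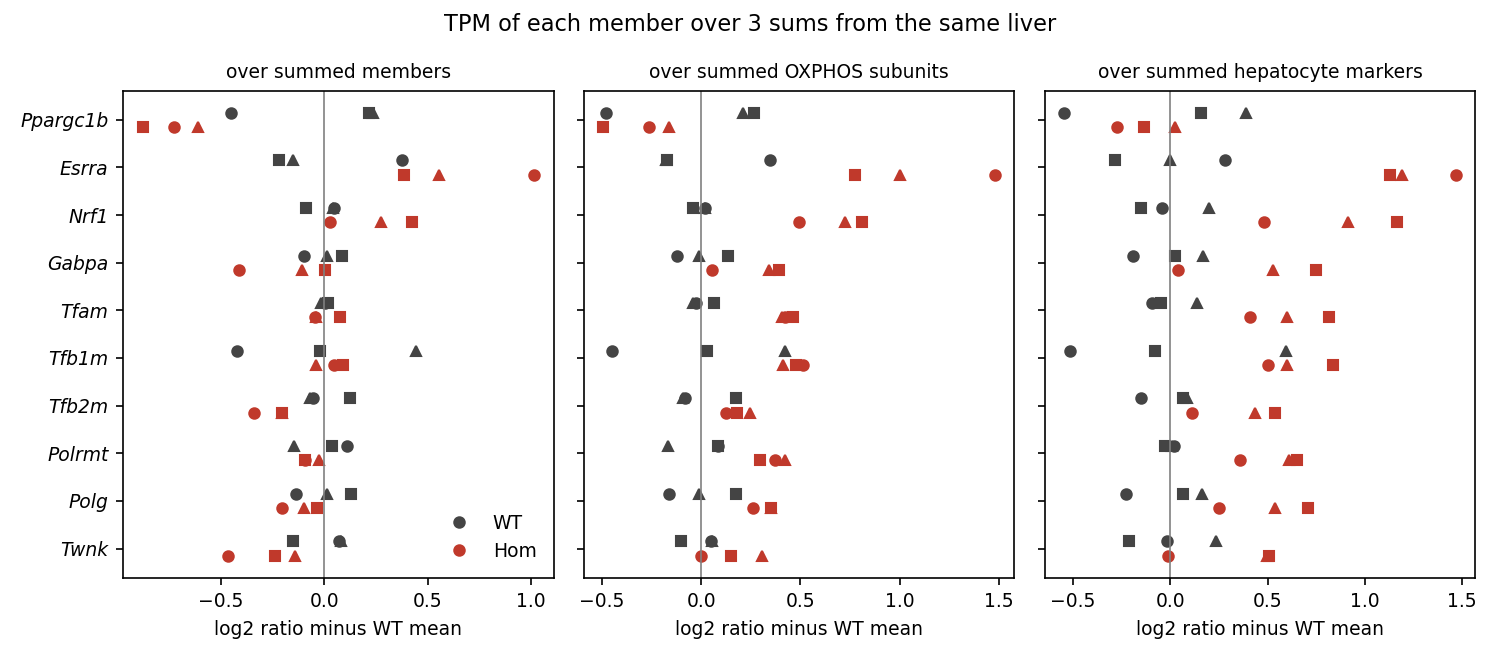
TPM of each member over the summed TPM of the 10 members (left), of 77 OXPHOS subunits (middle) and of 20 hepatocyte markers (right), as log2 ratio minus the WT mean (horizontal axes); grey points are WT and red points Hom livers, with circles, squares and triangles for replicates 1, 2 and 3. Esrra lies to the right in each panel, Ppargc1b to the left of the WT mean in the first, and Tfam moves from no difference over the members to 0.43 over the subunits.

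Per length of transcript, Tfb2m was the most abundant member in WT livers at 21.2 ± 1.97 TPM (SD, n = 3 mice), ahead of Esrra (15.2), Gabpa (13.7), Twnk (13.3), Polg (11.8), Tfam (11.4), Polrmt (9.32), Tfb1m (7.72), Nrf1 (4.46) and Ppargc1b (1.77). Neighbours in this order overlap over the 3 WT livers, except that Tfb1m lay above Nrf1 and Nrf1 above Ppargc1b in every liver. In Hom livers Esrra came first at 30.6 ± 7.22 TPM, with each value above those of Tfb2m (23.2 ± 1.23 TPM). Gabpa, Tfam, Polg and Twnk followed at 14.1 to 15.97 TPM and could not be ordered. Of 4 ratios between pairs of genes, those of Ppargc1b to Ppargc1a, Tfb2m to Tfb1m and Polrmt to Tfam overlapped between groups. The ratio of Esrra to Ppargc1b, the members whose patterns differed the most, is given as a description: in TPM it was 14.9, 6.20 and 6.41 in the WT livers, replicates 1, 2 and 3, against 28.0, 20.2 and 18.8 in the Hom livers in the same order, without overlap.

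The likeness of expression patterns was measured as the root mean square difference of mean-centred log2 CPM over the 6 livers, among 12864 other genes with a mean of at least 1 CPM. Within the members, Tfam and Polg were the closest pair at 0.088, followed by Tfb2m and Polg at 0.089, and Esrra and Ppargc1b the farthest at 0.83. The 3 genes nearest to Tfam were Emc3, Fahd1 and Ccdc47 (0.024 to 0.026), and those nearest to Ppargc1b were Arhgap26, Car5a and Dbt (0.052 to 0.11). Stard5, Eif2ak1 and Marchf2 were nearest to Gabpa, and Shfl, Ctsa and Pura to Nrf1. For Esrra these were Slc41a2, Zfp324 and Klhl25, and for Tfb1m they were Pex10, Ndufaf3 and Blmh. Tfb2m was nearest to Agpat3, Zfp652 and Fbxo8, Polg to Mrpl11, Neurl4 and Gpld1, Polrmt to Apeh, Hmox2 and Reep3, and Twnk to Mbl1, Bzw2 and Ola1.

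A short sequence near the start is shared by 5 members, and those stretches are shown. RefSeq promoter windows on GRCm38.p6, from 250 bases before to 50 bases after the start, were searched for 9 of the 10 members, in 11 windows. Ppargc1b, the member that fell the most, was left out of this search. The core that ETS factors such as GABPA bind, CCGGAAG or its reverse complement CTTCCGG, was found in 5 of the 11 windows, belonging to Tfam, Gabpa, Polg, Polrmt and Twnk, against 8.86% of all 32851 windows. The share of G and C bases in these 5 windows ranged from 52.0% (Polrmt) to 70.3% (Tfam), against a median of 52.7% over all windows. The comparison with all windows was not matched for this share. Each line gives 20 bases on both sides, 5′ to 3′ on the strand of the gene, with the core in capitals. The matches start 47, 93, 38 and 43 bases before the start of Tfam, Gabpa, Polg and Polrmt, and 110 and 66 bases before 1 of the starts of Twnk.
Tfam, chr10:71238065-71238111, minus strand: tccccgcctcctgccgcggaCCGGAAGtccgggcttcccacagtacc
Gabpa, chr16:84835011-84835057, plus strand: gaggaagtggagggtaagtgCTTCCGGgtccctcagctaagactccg
Polg, chr7:79466285-79466331, minus strand: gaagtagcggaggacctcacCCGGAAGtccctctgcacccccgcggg
Polrmt, chr10:79746598-79746644, minus strand: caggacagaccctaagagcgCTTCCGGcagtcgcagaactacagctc
Twnk, chr19:45006428-45006474, plus strand: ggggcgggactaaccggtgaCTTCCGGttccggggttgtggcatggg
Twnk, chr19:45006472-45006518, plus strand: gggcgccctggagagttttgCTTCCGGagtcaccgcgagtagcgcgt

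All 5 of these genes were called lower with TMM factors, with log2 fold changes from −0.24 (Tfam) to −0.53 (Twnk). Tfb2m was also called lower and had no exact match in its window, and Esrra, Nrf1 and Tfb1m, which were not called, had none either. Only exact matches were searched for, so windows without one may hold other ETS sites. Whether genes with the core were called lower more often than other genes was not tested. A window for Ppargc1b was not used here. The NRF1 core, GCGCA and GCGC with any 1 base between them on either strand, found in 4.6% of all windows, was present in 1 member, Polrmt, as 2 overlapping matches across the start. The ERR core AAGGTCA or its reverse complement, found in 4.72% of all windows, was present in 1 window of Twnk. The Polrmt window is shown whole because it holds an ETS and an NRF1 core together, both in capitals.
Polrmt, chr10:79746532-79746831, minus strand: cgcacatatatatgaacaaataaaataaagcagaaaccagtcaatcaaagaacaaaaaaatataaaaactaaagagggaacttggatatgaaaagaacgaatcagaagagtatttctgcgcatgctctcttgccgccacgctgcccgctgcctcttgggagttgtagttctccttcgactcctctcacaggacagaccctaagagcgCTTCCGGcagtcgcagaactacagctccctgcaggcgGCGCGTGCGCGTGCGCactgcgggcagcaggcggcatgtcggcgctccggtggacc

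Several upstream regulators had larger differences than any member. Of 30 listed upstream regulators 29 were tested, and 10 were lower and 3 higher, 34.5% and 10.3% against 20.1% and 21.5% of all tested genes (median log2 fold change −0.19). Esrrg, the receptor ERRgamma, had 55, 51 and 82 counts in WT replicates 1, 2 and 3 and 1 count in each Hom liver. Its pooled Hom level was 1.15% of WT (exact 95% interval 0.236 to 3.42, counting error only). Ppara, the receptor that drives fatty acid oxidation, was at 199.9, 288.9 and 221.3 TMM CPM in WT and 82.9, 105 and 99.6 in Hom livers, so it fell by 1.30 on the log2 scale (edgeR adjusted p = 0.00159). Ppargc1a, which encodes PGC-1alpha, was at 25.0, 21.4 and 15.1 TMM CPM in WT and 15.1, 10.1 and 8.47 in Hom livers. Its lowest WT and highest Hom liver nearly touch, and the log2 fold change was −0.87 (adjusted p = 0.0347 from edgeR). The Ppargc1a call was lost without WT replicate 1 (adjusted p = 0.0871), WT replicate 2 (0.0958), Hom replicate 2 (0.105) or Hom replicate 3 (0.103), all from edgeR. Sirt3, a mitochondrial deacetylase, fell by 0.83 on the log2 scale, and Ppard, Yy1, Prkaa2, Thrb, Ncor1 and Rxra had log2 fold changes from −1.15 to −0.41. Prkab1, a regulatory subunit of the kinase AMPK, rose by 0.997 on the log2 scale, Nfe2l2, the oxidative stress factor, by 0.76. The coactivator Ncoa6 was called higher by 0.23 (edgeR adjusted p = 0.0431), a call lost whichever liver was left out (0.0509 to 0.14). Other calls also ended without 1 liver, with these edgeR adjusted p-values: Ppard without WT replicate 3 (0.0511), Hom replicate 2 (0.0629) or Hom replicate 3 (0.0595), and Rxra without WT replicate 2 (0.0577), WT replicate 3 (0.0554), Hom replicate 2 (0.0693) or Hom replicate 3 (0.07). Ncor1 lost its call without WT replicate 2 (0.0534) or Hom replicate 2 (0.0564), Thrb without Hom replicate 2 (0.0505) and Prkaa2 without Hom replicate 3 (0.0619), by edgeR.

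Of 22 genes of mtDNA replication and the nucleoid, 8 were lower and 1 was higher, 36.4% and 4.55% against 20.1% and 21.5% of all tested genes (median −0.20). Slc25a33, a mitochondrial carrier of pyrimidine nucleotides, was at 20.7, 22.1 and 22.4 TMM CPM in WT replicates 1, 2 and 3 and at 6.67, 8.61 and 8.49 in Hom replicates 1, 2 and 3 (log2 fold change −1.45, adjusted p = 5.08e-04 from edgeR). Its relative Slc25a36 was called higher by 0.80, a call lost without WT replicate 2 (edgeR adjusted p = 0.0618), WT replicate 3 (0.0653), Hom replicate 2 (0.0754) or Hom replicate 3 (0.081). The nuclease gene Endog had a log2 fold change of −0.86 (edgeR adjusted p = 0.0503 without Hom replicate 3) and Atad3a, a nucleoid-associated ATPase, of −0.61. The accessory polymerase subunit Polg2 (−0.36) and the single-strand binding protein Ssbp1 (−0.10), chosen for mention after their values were seen, did not pass the test.

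Among 17 genes of nucleotide supply 9 were lower and 2 higher, 52.9% and 11.8% against the same 20.1% and 21.5% (median −0.43). Tymp, which degrades thymidine, had a log2 fold change of −1.82 and the succinyl-CoA ligase subunit Suclg1 of −0.76. Slc25a4, the ADP/ATP carrier that prevails in heart and muscle, rose from 5.75, 5.32 and 7.18 TMM CPM in WT to 29.4, 12.2 and 15.6 in Hom livers (log2 fold change 1.64, adjusted p = 0.00911 from edgeR). Mpv17 was called higher by 0.24 (edgeR adjusted p = 0.0482), a call lost whichever liver was left out (0.0827 to 0.125). Of 29 tested genes of mitochondrial RNA processing 6 were lower and 1 higher, 20.7% and 3.45%, the first of which is near the 20.1% of all tested genes (median −0.21). Among them were Hsd17b10, a subunit of mitochondrial RNase P (−1.23), Grsf1 (−0.64), Nsun4 (−0.64) and Angel2 (0.37), whose call was lost without WT replicate 3 (edgeR adjusted p = 0.0605), Hom replicate 1 (0.0547) or Hom replicate 3 (0.0695). Of 43 genes of protein import 27 were lower and 0 higher, 62.8% lower against 20.1% (median −0.39). With gene length correction 20 were lower and 1 higher, with the replicate block added 16 and 1, and with library size alone 0 and 7. In the same order, 18.2% and 22%, 14.4% and 17.2%, and 4.65% and 47.6% of all tested genes were lower and higher. With TMM factors the lowest import genes were Tomm40l (−0.69), Timm21 (−0.68) and Gfer (−0.68).

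Over the 5 lists 140 genes were tested, and 60 were lower and 7 higher with TMM factors against 8 lower and 37 higher with library size alone. The 8 genes called lower under both scalings included Esrrg, Tymp, Slc25a33, Ppara, Hsd17b10, Sirt3 and Suclg1. All 7 genes called higher with TMM factors were also called higher with library size alone. Thrb, Ncor1 and Rxra changed sign under that scaling, to 0.02, 0.04 and 0.05.

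**Figure D4:**
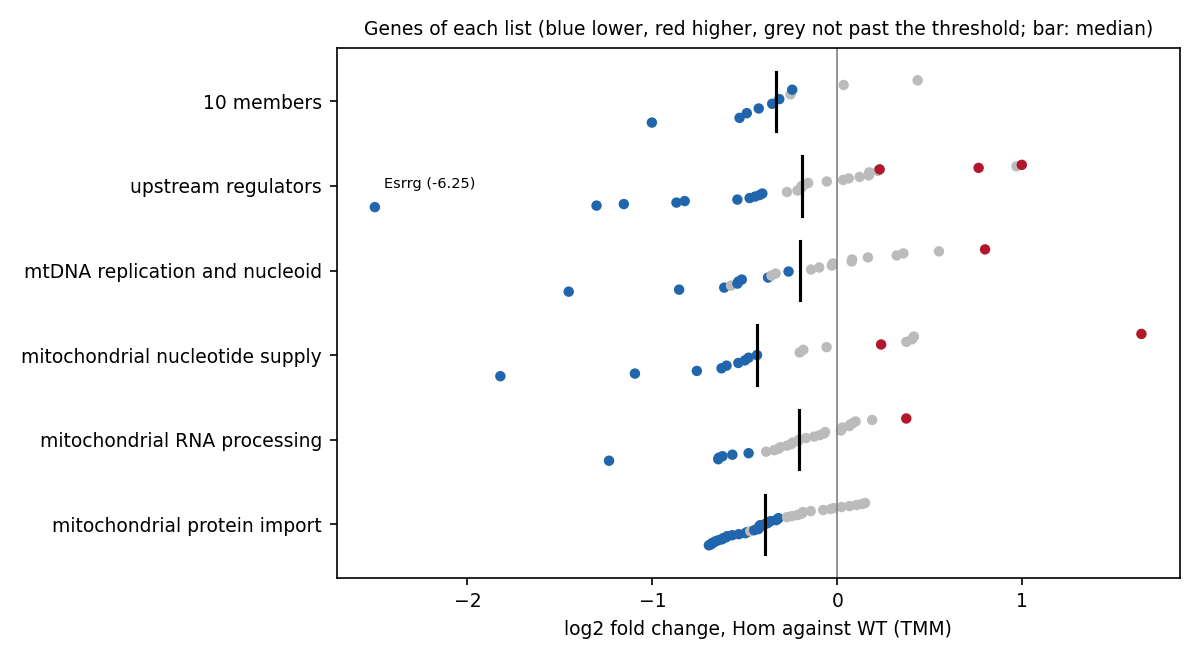
Log2 fold change, Hom against WT with TMM factors (horizontal axis), of each tested gene of the 10 members and of 5 lists of related genes (rows); blue genes were lower and red genes higher at an adjusted p under 0.05, grey genes did not pass, and black bars are medians. Esrrg is drawn at the left edge in place of its fitted value of −6.25, which depends on the prior count, and the members' median of −0.33 lies between those of RNA processing (−0.21) and protein import (−0.39).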

How the data were processed

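The authors extracted total RNA from whole liver and had it sequenced on DNBSEQ. The submitters' processing notes name HISAT2 2.0.4, Bowtie2 2.2.5, RSEM 1.2.12 and the build mm9. Annotation and strandedness are not given in the sources used here. The authors deposited 1 table of estimated counts, FPKM and TPM for each liver. The deposited group means carry crossed names (all 17975 genes, tolerance 0.01) and were not used.

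The expected counts were rounded to whole numbers, and edgeR 4.0.16 (R 4.3.3) was run on them with filterByExpr, TMM, glmQLFit and glmQLFTest, Benjamini-Hochberg over 13805 genes, adjusted p under 0.05 with no minimum fold. Standard errors were taken as the log2 change over the root of F, and 95% intervals assume a normal distribution. The deposited TPM served for ratios within a liver and for levels between genes. The deposited FPKM served only to recover gene length. Replicates differed by more than counting error (chi-square at least 23.8 per degree of freedom).

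Named genes were Nek7, the members, Ppargc1a, upstream regulators past the threshold, the 3 lowest and 3 highest called genes of each other list with a mean of at least 1 CPM, and the 3 nearest patterns; some of these are not reported here. The members and lists were chosen with earlier results of these data known. Alternatives were DESeq2 1.42.0, 3 other scalings, 2 other filters, the replicate block, a loess correction for gene length (limma 3.58.1), a minimum log2 fold change of 1 and each liver left out. On simulated data, 89.5% of 200 genes changed by 1 on the log2 scale were recovered among 13188 tested. Mitochondrially encoded genes were not analysed here.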

Additional observations from a re-analysis of the deposited data

How the results depend on the processing

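The lower calls of the members depended on the scaling. With library size alone 0 members were lower and 2 higher, 642 genes were lower and 6574 higher, and the listed pathway genes gave 8 lower and 37 higher. Under it Tfam (0.21), Gabpa (0.039), Tfb1m (0.21), Polg (0.11), Polrmt (0.14), Thrb (0.017), Ncor1 (0.039) and Rxra (0.047) changed sign, since all genes shift alike. Nrf1 was also negative after the gene length correction (−0.0010) and without WT replicate 2 (−0.0080), WT replicate 3 (−0.0095) or Hom replicate 2 (−0.021). With upper-quartile factors 4 members were lower. DESeq2 called 5 lower. With a minimum log2 fold change of 1, 1 member was lower (Ppargc1b), 575 genes were lower and 1825 higher, and the pathway lists gave 7 lower and 1 higher. Without 1 liver, 4 to 6 members were lower and 0 higher, 1767 to 2750 genes were lower and 1986 to 3057 higher, and the pathway lists gave 41 to 59 lower and 3 to 5 higher.

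Same-numbered livers come from different mice, and whether they share a litter, cage or batch is not stated in the sources used here. The correlations of their deviations were −0.016, −0.032 and 0.054, against −0.196 to 0.197 for differently numbered livers. With 3 livers per group such values cannot exclude a pairing. With the replicate block, 2214 genes were lower and 2383 higher, 4 members were lower and 1 higher (Esrra), and the pathway lists gave 4 higher; with gene length correction and the replicate block, 1 member was higher and 1983 genes lower. Counted as 3 same-numbered differences of 1 sign (smallest exact p 0.25), a replicate block of the within-liver ratios gave 6 members over the summed members, 7 over OXPHOS and 9 over hepatocyte markers, against 65.2%, 84.2% and 85.4% of all tested genes. Without 1 liver these counts of members without overlap were 4 to 5, 5 to 8 and 6 to 9, against 57.6% to 67.3%, 79.3% to 84.7% and 76.2% to 88.8% of all tested genes. Tfb1m had 93 to 156 counts per liver and an SD of 30.4% of the mean over WT livers. Esrrg had 1 count in each Hom liver.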
